A study of Mus musculus with 4 samples.

Results

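The genes described here are the mouse zinc finger genes whose name on the array is Zfp followed only by a number and that were detected on every array. A detection score of at least 0.95 on all 6 arrays, for at least 1 probe, was required, and 148 of the 221 Zfp-number names on the array met it, among 31490 target names in all. Zfp42 and Zfp352 were left out by name. The members were thus chosen by their measured detection scores, which count as a description, so a gene that was off in any of the samples cannot be among them. Where several detected probes matched a name, the brightest on average stands for the gene. Current symbols follow the RefSeq annotation, which matched 114 members by symbol and 33 by an older name. Zfp264 was not matched. Older names are added below for members that now have another symbol.

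Gene expression was measured in 4 samples of mouse embryonic stem (ES) cells, all on embryonic fibroblast feeders in standard medium, on Illumina MouseWG-6 v2 bead arrays. The 2i-derived group held 2 samples, 2i-RFP+ and 2i-RFP-, of strain C57/B6 at passage 5, each measured on 2 arrays. 2i is the usual name of a medium with inhibitors of MEK and GSK3. The standard-derived group held the line AFF204#21, C57/B6 at passage 11, and the line R1, strain 129 at passage 26, each measured on 1 array. How the cells were derived and how long they had been passaged cannot be told apart, and R1 also differs in strain. The labels do not state what RFP reports or whether both 2i-derived samples came from separate derivations. Each p-value therefore measures the spread between these samples only. All 12 pluripotent cell markers examined, among them Pou5f1, Nanog and Sox2, were detected on all 6 arrays. The 10 targets taken as feeder fibroblast markers were detected on all 6 arrays too. Of these, Postn was matched only through a synonym, to the target named Plf on the array. That name match was not checked by sequence, so the target may stand for another gene.

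C2H2 zinc finger proteins form the largest family of DNA-binding proteins in mammals, and each finger contacts a short stretch of bases. Many carry a KRAB domain, which recruits the corepressor KAP1 (Trim28), the H3K9 methyltransferase Setdb1 and HP1 proteins to silence retroelements and to protect methylation at imprinted loci. Others lack KRAB and act as activators, as partners of chromatin complexes, or on RNA and proteins. The genes of KRAB members often lie side by side in clusters.

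In 8 members both 2i-derived samples lay at least 1.5-fold above or below both standard-derived lines. Both 2i-derived samples were higher for Zfp608, Zfp758, Zfp275 and Rnf114 (Zfp313), 4 of 148 against 2.32% of the 12606 target names detected on all 6 arrays. Both were lower for Zfp57, Zfp94, Zfp69 and Zscan5b (Zfp371), 4 of 148 against 1.63%. Each count is 2.7% of the members, which is not far from either background. The 1.5-fold limit was chosen after the values had been seen, and these shares describe the genes without testing them. The proximal promoters of these genes, where RefSeq's table gave one, are printed to show how unlike they are in CpG content. Each run holds the 250 bases before the annotated start in GRCm38.p6, 5′ to 3′ on the gene's strand, with every CpG in capitals. The windows are chr17:37003416-37003665 (+) for Zfp57, chr7:24316667-24316916 (-) for Zfp94, chr4:120951702-120951951 (-) for Zfp69, chr2:167503193-167503442 (+) for Rnf114, chrX:73342370-73342619 (+) for Zfp275 and chr17:22361213-22361462 (+) for Zfp758.
Zfp57: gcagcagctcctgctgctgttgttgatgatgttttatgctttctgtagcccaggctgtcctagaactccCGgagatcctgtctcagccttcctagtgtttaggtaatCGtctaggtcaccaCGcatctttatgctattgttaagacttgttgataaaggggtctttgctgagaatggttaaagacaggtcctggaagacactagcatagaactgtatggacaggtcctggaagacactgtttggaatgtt
Zfp94: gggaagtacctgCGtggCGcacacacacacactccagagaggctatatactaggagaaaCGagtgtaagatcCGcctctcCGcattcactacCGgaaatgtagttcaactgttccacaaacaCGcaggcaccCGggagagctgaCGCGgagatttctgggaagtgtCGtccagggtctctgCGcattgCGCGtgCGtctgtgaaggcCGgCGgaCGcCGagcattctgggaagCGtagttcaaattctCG
Zfp69: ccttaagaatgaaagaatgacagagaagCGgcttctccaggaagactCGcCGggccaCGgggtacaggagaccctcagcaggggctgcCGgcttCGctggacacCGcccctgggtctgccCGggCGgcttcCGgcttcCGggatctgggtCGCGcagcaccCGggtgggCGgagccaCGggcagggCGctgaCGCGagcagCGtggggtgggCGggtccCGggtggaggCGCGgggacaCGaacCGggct
Rnf114: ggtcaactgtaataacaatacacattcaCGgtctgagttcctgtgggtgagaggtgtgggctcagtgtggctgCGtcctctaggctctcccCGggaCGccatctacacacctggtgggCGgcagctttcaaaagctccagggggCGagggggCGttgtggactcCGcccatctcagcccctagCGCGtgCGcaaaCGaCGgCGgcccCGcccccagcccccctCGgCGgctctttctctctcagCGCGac
Zfp275: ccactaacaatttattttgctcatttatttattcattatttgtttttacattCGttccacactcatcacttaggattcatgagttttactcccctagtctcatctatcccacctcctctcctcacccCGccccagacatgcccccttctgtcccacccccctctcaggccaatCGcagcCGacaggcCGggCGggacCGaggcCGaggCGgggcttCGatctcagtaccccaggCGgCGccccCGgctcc
Zfp758: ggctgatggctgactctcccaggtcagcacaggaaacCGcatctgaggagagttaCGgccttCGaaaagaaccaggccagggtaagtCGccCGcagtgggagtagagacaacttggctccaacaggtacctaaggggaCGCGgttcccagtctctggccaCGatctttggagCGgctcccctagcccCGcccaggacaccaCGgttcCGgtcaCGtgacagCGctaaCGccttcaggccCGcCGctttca
The Zfp57 run held 3 CpGs, against 21 in Zfp94 and 26 in Zfp69, the other genes lower in the 2i-derived samples. The runs of the genes higher in the 2i-derived samples held 19 CpGs for Rnf114, 13 for Zfp275 and 17 for Zfp758. CpG number therefore did not separate these genes by direction.

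Across members, the promoter windows were CpG-rich in the way of detected genes as a whole. In windows of 300 bases, from 250 before to 50 after the start, 123 members had an entry. Their median CpG number was 18, against 21 in the 8129 windows of detected genes and 7 in all 27025 windows. Median GC content was 58.7% for members, 61.0% for detected genes and 52.7% for all windows. The median ratio of observed to expected CpG was 0.726 for members, 0.772 for detected genes and 0.389 for all windows. Against detected genes, members therefore had slightly fewer CpGs. Exact motif matches on either strand were counted for 6 motifs, all chosen after earlier results were known. The ETS motif CCGGAAG was in 19.5% of member windows, 18.9% of those of detected genes and 9.12% of all. The SP motif GGGCGG was in 56.1%, 65.7% and 35.9%, in the same order. The cyclic AMP response element TGACGTCA was in 4.07%, 3.37% and 1.88%. The NRF1 core GCGCATGC was in 8.13%, 5.62% and 2.80%. The YY1 motif AAGATGG was in 12.2%, 7.63% and 6.48%, and the ZFP143 core ACTACAA in 6.50%, 4.39% and 3.45%. These are letters found in a window and not evidence of binding. Each gene's first listed start was used.

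No member passed the test between the groups. limma's moderated test called 0 of 148 members at an adjusted p under 0.05, where it called 24 of 14572 genes (0.165%). At an unadjusted p under 0.05 it gave 22 members (14.9%) and 20.9% of all genes tested. The lowest adjusted p among members was 0.0744, and 4 members lay under 0.10. That no member passed does not show that the members were alike in both groups. Both 2i-derived samples were above both standard-derived lines in 39 members (26.4% of members, background 26.4%) and below them in 39 members (26.4%, background 29.9%). The 2i-derived mean was at least 2-fold higher in 4 members (background 2.49%) and at least 2-fold lower in 2 members (background 1.47%). Each of these last 4 shares lay near its background.

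**Figure D1:**
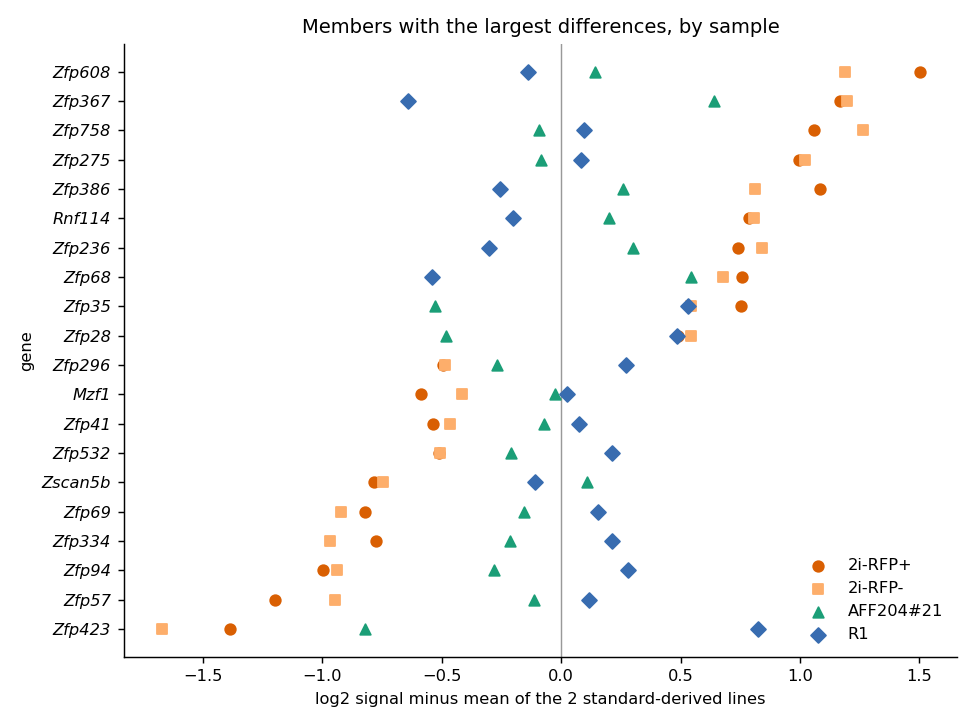
Log2 signal of each sample minus the mean of both standard-derived lines, for the 10 members with the largest difference in each direction among those whose groups do not overlap; each marker is 1 sample (repeat arrays averaged) and no error bar is drawn. Zfp758 and Zfp275 show both standard-derived lines close together, whereas Zfp367 and Zfp423 show them far apart.

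Among the members higher in the 2i-derived samples, Zfp608, a paralogue of the cohesin loader partner Zfp609, had the largest difference. Its log2 signal was 8.29 in 2i-RFP+, 7.98 in 2i-RFP-, 6.93 in AFF204#21 and 6.65 in R1. Both 2i-derived samples lay above both standard-derived lines. The 2i-derived mean was 2.54-fold higher (log2 difference 1.34, SE 0.20, adjusted p = 0.0780 by limma). The authors' deposited table, which averages all probes of a gene whether detected or not, gave 0.60. Zfp758 had 6.70, 6.90, 5.54 and 5.73 in the same order of samples. Both groups were tight, and the difference of 1.16 (SE 0.17, adjusted p = 0.0747) stands beside a largest difference of 0.35 between repeat arrays, which only the 2i-derived samples have. The authors' deposited table gave 0.34 for it. Zfp275, on the X chromosome, had 8.62, 8.64, 7.54 and 7.70. Its difference of 1.01 (SE 0.14) had the lowest adjusted p of the members, 0.0744. Rnf114, a RING-type ubiquitin ligase that also carries zinc fingers, had 8.95, 8.97, 8.36 and 7.96. It was 0.80 higher (SE 0.18, adjusted p = 0.128), and its second probe gave 0.74.

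In other members with a high 2i-derived mean the standard-derived lines lay further apart. Zfp367, a C2H2 transcription factor, had 7.55, 7.58, 7.02 and 5.74. R1 alone was far below the others, and the difference of 1.18 had an SE of 0.45 (adjusted p = 0.243). Its second detected probe gave 0.09, so the probes disagree about this gene. Against AFF204#21 alone the difference was 0.54, and against R1 alone 1.82. The authors' deposited table gave 0.49. Zfp386 had 6.58, 6.31, 5.76 and 5.24, a difference of 0.95 (SE 0.24, adjusted p = 0.143), and lay just inside the detection rule. The authors' deposited table gave 0.15 for Zfp386, and the fit without background correction 0.62. Zfp236 had 9.79, 9.89, 9.35 and 8.74, a difference of 0.79 that was 0.49 against AFF204#21 alone. Zfp68 had 8.18, 8.11, 7.97 and 6.89, a difference of 0.72 that was 0.18 against AFF204#21 alone. R1 was the lowest sample for both. Zfp28 had 8.96, 9.01, 7.99 and 8.95, a difference of 0.52 that was 0.03 against R1 alone and 0.15 in the authors' deposited table. Zfp35 differed by 0.65, and by 0.12 against R1 alone. AFF204#21 was the lowest sample for both.

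Zfp57, the KRAB zinc finger protein that keeps DNA methylation at imprinting control regions, was among the members lower in the 2i-derived samples. Its log2 signal was 8.42 in 2i-RFP+, 8.68 in 2i-RFP-, 9.51 in AFF204#21 and 9.74 in R1. The groups did not overlap, and the 2i-derived mean was 2.10-fold lower (log2 difference -1.07, SE 0.16, adjusted p = 0.0802). Its promoter run above, with 3 CpGs, had the fewest of those printed. Zfp94 had 7.97, 8.02, 8.68 and 9.24, a difference of -0.97 (SE 0.23, adjusted p = 0.132). The 2i-derived samples were nearly equal for Zfp94, and R1 lay above AFF204#21. Zfp69, a KRAB zinc finger gene, had 5.85, 5.75, 6.52 and 6.83, a difference of -0.87 (SE 0.18, adjusted p = 0.108). Zscan5b, of the SCAN-domain zinc finger genes, had 8.10, 8.14, 8.997 and 8.78, a difference of -0.77 (SE 0.15, adjusted p = 0.1005).

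Zfp423, a many-fingered partner of EBF and SMAD factors with roles in fat cell commitment and cerebellar development, had the largest negative difference and the widest range of all members. Its log2 signal was 6.37 in 2i-RFP+, 6.08 in 2i-RFP-, 6.93 in AFF204#21 and 8.58 in R1. R1 stood apart, so the difference of -1.53 had an SE of 0.57 (adjusted p = 0.238). For this gene, repeat arrays lay up to 0.66 apart. Against AFF204#21 alone the difference was -0.71, and against R1 alone -2.35. Of the 10 feeder fibroblast markers, 9 were lower in the 2i-derived samples, with a median difference of -0.44. limma called 0 of them, against 0.165% of all genes, and 5 had an unadjusted p under 0.05, against 20.9%. The target Plf, taken as Postn, was among both the 9 and the 5 and is part of the sum that follows. The log2 of their summed signal was 12.86 in 2i-RFP+, 12.60 in 2i-RFP-, 12.96 in AFF204#21 and 13.30 in R1. Acta2 had the highest signal of these markers in every sample, and Col3a1, Thy1, Pdgfrb, Dcn and Lum did not follow the order of the sum. This order, from R1 down through AFF204#21 and 2i-RFP+ to 2i-RFP-, was shared by Zfp423, Zfp69 and Zfp334. Zfp57, Zfp94, Zfp532, Zfp41, Mzf1 and Zfp296 also had R1 highest and AFF204#21 next, but 2i-RFP+ below 2i-RFP-. The step between the 2i-derived samples was smaller than the largest repeat-array difference for Zfp423, Zfp334, Zfp94, Zfp532, Mzf1 and Zfp296. It was larger for Zfp69, Zfp57 and Zfp41. Zscan5b was highest in AFF204#21. All of these members were chosen with both standard-derived lines above both 2i-derived samples, so only the order within each group could vary. The likeness to the order of the summed markers is thus largely set by that choice and was not tested. The part of feeder RNA in these differences was not tested. In such mixed RNA, fewer cells of a type and less RNA per cell cannot be told apart. 

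The other 5 of the 10 members with the lowest differences were Zfp334, Zfp532, Zfp41, Mzf1 (Zfp98 on the array) and Zfp296. Zfp334 had 7.52, 7.32, 8.08 and 8.51, a difference of -0.87 (SE 0.21, adjusted p = 0.134), and its second probe gave 0.09. The authors' deposited table gave -0.36 for Zfp334. Zfp532 had 10.85, 10.85, 11.15 and 11.57, a difference of -0.51 that was -0.30 against AFF204#21 alone. Zfp41 had 9.59, 9.67, 10.06 and 10.21, a difference of -0.50 (SE 0.12, adjusted p = 0.129). In all 3 the groups did not overlap and R1 was the highest sample. Mzf1, the myeloid zinc finger gene, had 6.49, 6.66, 7.05 and 7.10, a difference of -0.50. Zfp296 is described with the stem cell regulators below.

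By role, the members did not move together in any of 5 lists, in each of which limma called 0 members. Over all genes tested, the shares to set beside each list were 0.165% called and 20.9% at an unadjusted p under 0.05. Of 8 regulators of imprints and retroelements, Zfp57 and Zfp445 were members. Zfp445, which also guards imprints, had 8.61, 8.76, 8.13 and 8.50, a difference of 0.37 (SE 0.18), opposite in sign to Zfp57 and 0.14 in the authors' deposited table, and 1 of the pair had an unadjusted p under 0.05. Of 12 stem cell regulators, 8 were members, 2 above and 6 below 0, with a median of -0.10 and 0 at an unadjusted p under 0.05. Zfp296, which promotes reprogramming to pluripotency, had 11.61, 11.62, 11.83 and 12.37, a difference of -0.49 that was -0.22 against AFF204#21 alone. Zfp281, a Nanog partner, had 11.32, 11.40, 11.45 and 11.38, a range of 0.13 against a median range of 0.45 over all members. Zfp143, which activates promoters, differed by -0.12, and Zfp207, which binds the checkpoint protein Bub3, by -0.09.

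Of 12 partners of chromatin complexes, 6 were members, 3 above and 3 below 0 (median 0.05, 2 at an unadjusted p under 0.05). Besides Zfp608, Zfp592 differed by 0.35 and Zfp532 by -0.51, although both belong to a shared complex with Zfp687. Zfp410, the activator of Chd4, had 7.48, 7.51, 7.36 and 7.36, a difference of 0.13. Of 11 genes acting on RNA or proteins, 9 were members, 6 above and 3 below 0 (median 0.10, 2 at an unadjusted p under 0.05). After Rnf114, the ubiquitin ligase Zfp91 differed by 0.33 (SE 0.12, adjusted p = 0.221), and by 0.12 in the authors' deposited table. Zfp36, which binds AU-rich mRNAs and promotes their decay, had 9.52, 9.53, 9.67 and 9.18. Zfp598, which ubiquitinates collided ribosomes, differed by -0.04. Of 15 developmental transcription factors, 6 were members, 4 above and 2 below 0 (median 0.09, 1 at an unadjusted p under 0.05). They were Zfp423, Zbtb14 (Zfp161), Zbtb18 (Zfp238), Patz1 (Zfp278), Zfp467 and Zfp64.

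The machinery through which KRAB proteins silence was listed as 31 genes, of which 29 were tested. limma called 0 of them, against 0.165% of all genes, and 8 had an unadjusted p under 0.05, against 20.9%. Of these genes 15 were above and 14 below 0. Trim28 had 14.15, 14.21, 14.49 and 14.51, a difference of -0.32 (SE 0.06, adjusted p = 0.0932 by limma). Setdb1 had 9.37, 9.43, 9.42 and 9.65, with groups that overlapped. The HP1 gene Cbx3 had 11.92, 11.94, 11.49 and 11.54, a difference of 0.41. Among the 28 genes detected on all 6 arrays, the largest difference was 0.94 for X-linked Rbbp7, a histone-binding subunit of NuRD. Atrx, also X-linked, was not detected on all 6 arrays. It had 6.83, 6.86, 5.76 and 5.18, lowest in R1, and its fitted difference of 1.37 is therefore uncertain.

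On the X chromosome, all 4 members were above 0, with 1.01 for Zfp275, 0.39 for Zfp185, 0.34 for Zfp449 and 0.16 for Zmym3 (Zfp261). Their median of 0.37 stands beside 0.60 for the 348 detected X-linked genes. Zfp185 had 6.77, 7.22, 6.91 and 6.30, so its groups overlapped, and its difference fell to 0.08 with R1 left out and was 0.70 with AFF204#21 left out. Other chromosomes with few members were uneven too, with 1 of 6 members above 0 on chromosome 8 and 2 of 2 on chromosome 3. The medians of all detected genes were -0.15 on chromosome 8 and -0.01 on chromosome 3. On the autosomes the median furthest from 0 was -0.22, on chromosome 11, against 0.60 on the X chromosome. None of these leans was tested.

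**Figure D2:**
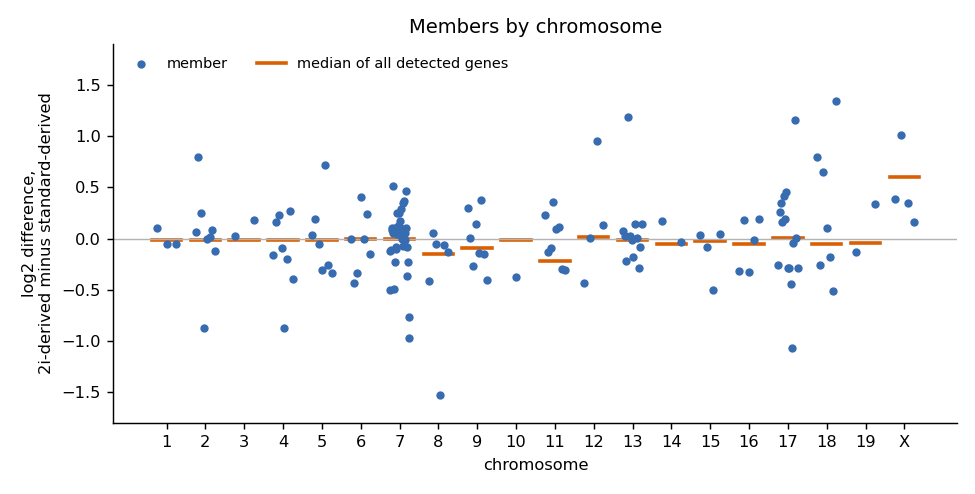
Log2 difference of each member, 2i-derived minus standard-derived, by chromosome (points, spread sideways for sight), with the median of all detected genes of that chromosome (orange line). The X chromosome's line stands at 0.60 with all 4 members above 0, and chromosome 7 holds 34 members.

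The members were unevenly spread over the genome. Chromosomes 7, 13 and 17 held 61 members, 41.5% of those with a chromosome, against 16.6% of detected genes. Chromosome 7 alone held 34 members, 23.1% against 7.92%. Counting members with at most 5 protein-coding genes between them, 6 runs of 3 or more neighbours held 26 members. The largest run was Zfp30, Zfp27, Zfp82, Zfp566, Zfp260 and Zfp382 on chromosome 7, of which 3 were above 0, with differences from -0.23 to 0.28. Another run on chromosome 7 held both Zscan5b (-0.77) and Zfp28 (0.52). Neighbours thus differed in sign in every one of the 6 runs. With 52.0% of all members above 0, mixed signs in such short runs say nothing particular about neighbours. In the run on chromosome 6, the members below 0, Zfp398 (-0.009) and Zfp212 (-0.007), lay close to 0. By current symbol, 1 of 9 Zscan or Zkscan members was above 0 (median -0.29), against 3 of 5 Zbtb members (median 0.10) and 65 of 121 members named Zfp (median 0.01). These symbol classes were formed after the values had been seen and were not tested.

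The members varied about as much as other detected genes. Their median difference was 0.01 and 77 (52.0%) were above 0, against -0.02 and 47.1% for all 12606 detected names. Their median absolute difference was 0.18, against 0.21. The root mean square difference between 2i-RFP+ and 2i-RFP- was 0.16 for members and 0.15 for all detected names, and that between AFF204#21 and R1 was 0.45 and 0.52. The lines of the standard-derived group thus lay further apart than the 2i-derived samples in both sets. Each 2i-derived value is a mean of 2 arrays, however, and each standard-derived value comes from 1 array. Between repeat arrays of the same sample, the root mean square difference for members was 0.18 in 2i-RFP+ and 0.19 in 2i-RFP-. For all detected names it was 0.20 and 0.18. The range over the 4 samples stayed under 1.5-fold in 100 members (67.6%, against 66.4%) and reached 2-fold in 17 (11.5%, against 11.2%).

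**Figure D3:**
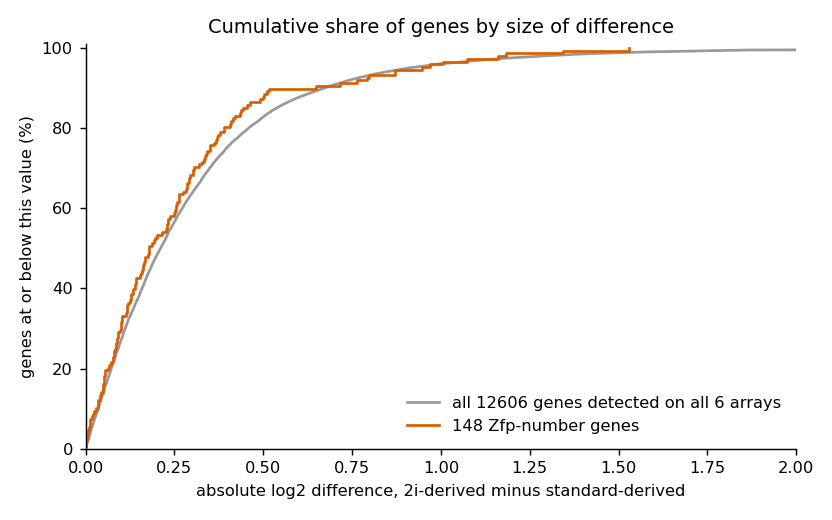
Share of genes (%) whose absolute log2 difference between groups is at or below the value on the horizontal axis, for the 148 members (orange steps) and all 12606 detected names (grey line). Both lines run close together, with medians of 0.18 and 0.21.

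The least variable members were Zfp622, a factor in maturation of the large ribosomal subunit, Zfp512, Zfp639, Arfgap2 (Zfp289 on the array, which acts on Arf GTPases), Zfp574 and Zfp87. Zfp622 had 5.77, 5.68, 5.69 and 5.67, a range of 0.099 log2 units. Its signal was low, with bead intensities of 82.7 to 90.3 against array medians of 59.3 to 63.2. Its range is thus not directly comparable with that of a bright gene. The others had ranges of up to 0.115. Zfp639 had 11.80, 11.76, 11.81 and 11.71.

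Many of the larger differences lay between the standard-derived lines, each with 1 array and no replicate check. AFF204#21 was at least 2-fold above R1 in 4 members (background 2.97%) and at least 2-fold below in 2 members (background 1.98%). Higher in AFF204#21 were Zfp213 (log2 difference 1.58), Zfp367 (1.28), Zfp39 (1.20) and Zfp68 (1.08). Zfp213 had 8.46 in 2i-RFP+, 8.37 in 2i-RFP-, 9.02 in AFF204#21 and 7.44 in R1, so the 2i-derived samples lay between the lines. The second detected probe of Zfp367 gave 0.03, and the authors' deposited table gave 0.47, so its 2-fold gap rests on 1 probe. A second probe of Zfp68 gave 2.02. Lower in AFF204#21 were Zfp423 (-1.64) and Zfp35 (-1.06). Zfp35 had 9.06, 8.85, 7.77 and 8.83, so that AFF204#21 alone was low. Past these, Zfp26 (0.81), Zfp160 (0.78), Zfp24 (0.77) and Zkscan17 (0.71) followed in one direction, and Zfp28 (-0.97), Zfp97 (-0.91), Zfp30 (-0.89), Zfp62 (-0.84), Zfp459 (-0.72) and Zfp398 (-0.70) in the other. The authors' deposited table gave smaller gaps for several of these, 0.23 for Zfp26, -0.28 for Zfp28, -0.36 for Zfp30, -0.42 for Zfp62 and -0.19 for Zfp398. The mean of the detected probes gave -0.46 for Zfp398.

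**Figure D4:**
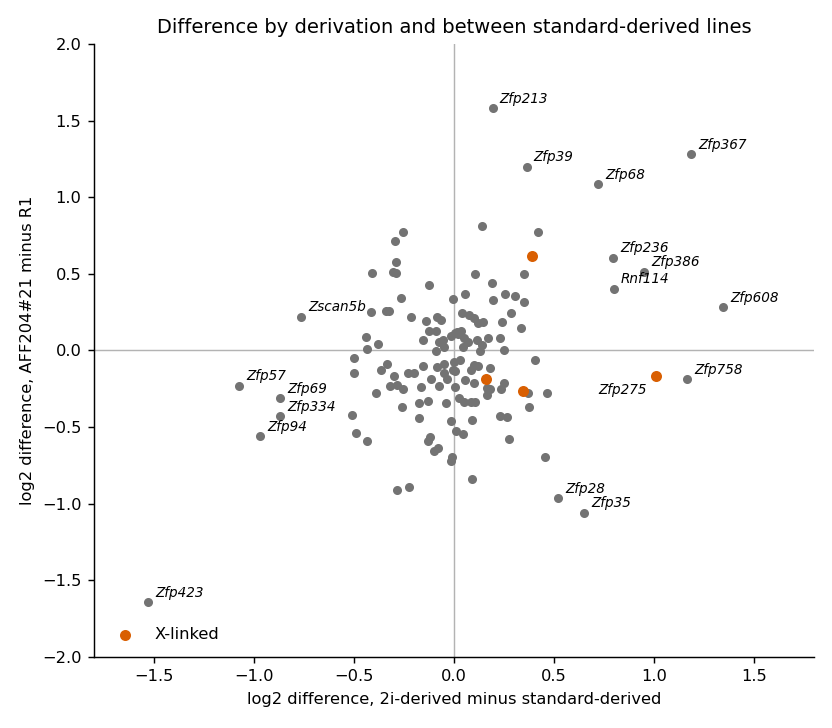
Log2 difference between AFF204#21 and R1 (vertical) against that between 2i-derived and standard-derived samples (horizontal) for the 148 members, with X-linked members in orange; both axes use the same standard-derived arrays. Zfp57, Zfp275 and Zfp758 lie far from 0 only on the horizontal axis, Zfp213 mainly on the vertical axis, and Zfp423 and Zfp367 on both.

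Sorted by the sample that stood at least 1.5-fold apart from the other 3, R1 was below them in 6 members (background 4.28%): Zfp160, Zfp213, Zfp236, Zfp367, Zfp39 and Zfp68. R1 was above them in 4 members (background 3.29%): Zfp239, Zfp30, Zfp423 and Zfp97. AFF204#21 was below the others in 3 members (background 1.37%), Zfp28, Zfp318 and Zfp35, and above them in Zkscan17 alone (1 member, background 1.93%). Zfp239 and Zfp318 were named only because of this count, after their values had been seen. R1 differs from the other samples in strain and in passage, and the fit of the probes to strain 129 sequence was not tested.

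The 2i-derived samples were close for every member. None was 2-fold apart between 2i-RFP+ and 2i-RFP- (background 0.0238%), and none reached 1.5-fold. The largest gap was that of Zfp62, with 6.15 in 2i-RFP+ and 6.70 in 2i-RFP-, a 1.47-fold difference.

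Members just inside the detection rule were Zfp386, Zfp609 and Zfp629, with lowest scores of 0.953, 0.957 and 0.965. Just outside were Zfp458 (0.938), Zfp612 (0.943) and Zfp78 (0.947). Of the 71 Zfp-number names that were not members, 45 were detected on no array and 26 on 1 to 5 arrays. limma tested 17 of these and called 0. Zfp111, Zfp235, Zfp93 and Ovol2 (Zfp339 on the array), a regulator of epithelial identity, were detected on all arrays but that of R1. Ovol2 had 8.06 in 2i-RFP+, 8.04 in 2i-RFP-, 8.22 in AFF204#21 and 4.76 in R1, where it was not above background. Zfp182 and Zfp74 were detected on all 4 arrays of the 2i-derived samples and on neither standard-derived array. Zfp182, X-linked, had 6.02, 5.98, 4.77 and 4.71. These genes were named after their detection patterns had been seen.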

How the data were processed

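Total RNA was biotin-labelled and hybridised to bead arrays, per the labels' protocols. The deposited bead intensity of each probe was summarised with GenomeStudio 1.0.6 without normalization, per the file headers. Each probe's deposited detection score is a fraction from 0 to 1, and 1 minus this score served as detection p. A deposited log2 table, found by comparison to be quantile-normalized and averaged over all probes of a target, served as an alternative. How it was made is not given in the sources used. The authors' bead number and bead SD per probe gave a median standard error of 4.21% for members (2.23% to 9.10%). Between 19143 and 19865 of 45281 probes were detected per array, and the number of arrays limits the precision.

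Intensities were background corrected and quantile normalized to log2 by neqc (offset 16) in limma 3.58.1 under R 4.3.3, and arrays of the same sample were averaged. Names damaged by a spreadsheet (25, with 40 probes) were left out. A gene was tested where it had a probe detected on all 6 arrays, or a probe with mean detection p under 0.05 in at least 2 of 4 samples, which gave 14572 names. The groups were compared two-sided with limma's lmFit and eBayes (trend on), and p-values were Benjamini-Hochberg adjusted over these names, with strain and passage not entered. The fit was tested on data simulated with the same spread in all 4 samples. The real groups differed in spread, and that setting was not simulated. Of 47 members with 2 or more detected probes, 14 had probes of opposite sign, none of them over 1 log2 unit apart.

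The members and lists were chosen with earlier results of these data known. Named genes are the 10 members with the largest difference in each direction among non-overlapping ones, the 8 in each direction between AFF204#21 and R1, the 6 with the smallest range, the X-linked members, the role lists and the 3 nearest the detection limit on each side. The rule also takes called members, members 1.5-fold apart between the 2i-derived samples, and members whose probes differed in sign by over 1 log2 unit, of which there were none. The 1.5-fold patterns, symbol classes, neighbour runs, motifs and printed promoters were chosen after the values were seen. Promoters, symbols and chromosomes are RefSeq's for GRCm38.p6, and probe positions are not used here. A planned split of KRAB from other members needs protein sequences, which were not used here.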

Additional observations from a re-analysis of the deposited data

How the results depend on the processing

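limma called 0 members under every alternative run except when a standard-derived line was left out, where the spread comes from the 2i-derived pair alone and the lone line is assumed to vary like it. Leaving out each sample in turn gave from 0 to 57 members called, with 57 without AFF204#21 (25 higher, 32 lower) and 54 without R1 (27 and 27), while 6582 and 5314 of all genes were called. For the KAP1 machinery it gave from 0 to 19 genes, with 19 without AFF204#21 and 12 without R1. Of all 14572 genes, 24 were called as reported. The count was 0 without background correction, with median scaling, with a robust trend, with the 2i-derived samples as 1, or without either 2i-derived sample. It was 35 with the mean of detected probes, 12 with the deposited log2 table, 31 with no detection filter and 1 with only names detected on all 6 arrays. The median member difference stayed between -0.018 and 0.034. Members at least 2-fold apart between AFF204#21 and R1 fell from 6 to 3 without background correction. They numbered 5 with median scaling, 6 with the mean of detected probes and 4 with the deposited log2 table. The cause was not tested.

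Over 67 named members and 9 alternatives each, 39 of 603 log2 differences turned sign, 28 of them on leaving out 1 sample. None of the members 1.5-fold apart by derivation turned. On leaving out 1 sample they could not, since they were chosen with both 2i-derived samples on the same side of both standard-derived lines. With 1 sample left out, the lowest and highest values were -0.0095 and 0.205 for Zbtb18, -0.044 and 0.189 for Zfp131, -0.599 and 0.983 for Zfp213, -0.129 and 0.059 for Zfp219, -0.643 and 0.129 for Zfp24, -0.264 and 0.545 for Zfp26, -0.671 and 0.220 for Zfp30, -0.033 and 0.407 for Zfp326, -0.145 and 0.350 for Zfp36, -0.239 and 0.961 for Zfp39, and -0.358 and 0.340 for Zfp398. They were -0.126 and 0.020 for Zfp451, -0.381 and 0.344 for Zfp459, -0.058 and 0.053 for Zfp574, -0.213 and 0.130 for Zfp598, -0.330 and 0.507 for Zfp62, -0.0051 and 0.089 for Zfp622, -0.203 and 0.304 for Zfp629, -0.034 and 0.074 for Zfp639, -0.051 and 0.064 for Zfp87, -0.743 and 0.169 for Zfp97, and -0.649 and 0.062 for Zkscan17. With median scaling, Zfp398 was 0.033, Zfp459 0.0097 and Zfp574 0.021. With the mean of detected probes, Zfp207 was 0.017, Zfp398 0.089 and Zfp87 -0.025. With the deposited log2 table, Zfp207 was 0.0065, Zfp398 0.054, Zfp62 -0.015, Zfp64 -0.024 and Zfp87 -0.021. The cause of the other turns was not tested. Alternatives for a KRAB split were not run, since that split was not made. No paired analysis was possible because the labels give no replicate numbers that the groups share.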
